A study of Mus musculus with 27 samples.

Results

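The 10 acute phase genes described here are Saa1, Saa2, Saa3, Hp, Orm1, Orm2, Lcn2, Fgb, Hpx and Serpina3n. They were taken by symbol as known acute phase genes, and all 10 were found among the 55487 gene identifiers of the count table. The acute phase response is the change in the secreted proteins of the liver that follows infection or injury. Cytokines of macrophages, above all IL-6 acting through the transcription factor STAT3 and IL-1 acting through NF-kappaB and C/EBP factors, raise transcription of these genes in hepatocytes. Some of them, Saa3 and Lcn2 among them, are also known to be made by macrophages, other immune cells or glia in mice.

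RNA was sequenced from primary mouse hepatocytes, bone marrow-derived macrophages (BMDM) and microglia, each exposed for 24 h to 10 µM saringosterol, to 1 µM of a synthetic compound or to the ethanol vehicle. Saringosterol is a phytosterol, given in the design as its 24(S) form, and the synthetic compound is spelled GW3596, GW3964 or GW3965 in the labels and is abbreviated to GW. Under the name GW3965 such a compound activates the liver X receptors (LXR), nuclear receptors for oxysterols that raise lipid transport genes and restrain some inflammatory genes. The 9 groups, saringosterol, GW and vehicle in each of the 3 cell types, held 3 libraries each. Neither the strain, sex and age of the mice nor the origin of the replicates (animals or cultures) was given in the labels, so p-values measure the spread between these libraries. All treatments were serum-free, but hepatocytes were kept in Williams' E medium, whereas BMDM and microglia received DMEM/F12 that also held M-CSF, albumin and an insulin, transferrin and selenite supplement. Medium and cell type cannot be told apart where hepatocytes are compared with the other cells. The compounds were also used at different doses, so a difference between saringosterol and GW is one between 10 µM and 1 µM.

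The promoters of the serum amyloid A genes are shown first, because Saa1 and Saa2 on one side and Saa3 on the other were abundant in different cells in these cultures. The genes lie together on chromosome 7 of GRCm38, with Saa3 at 46711998 to 46715700 and Saa1 at 46740497 to 46742980, both on the minus strand, and Saa2 at 46751790 to 46754313 on the plus strand. RefSeq promoter entries (GRCm38.p6) were found for 8 of the 10 genes. The windows printed run from 250 to 51 bases before the RefSeq start of each gene. They are chr7:46743031-46743230 (minus strand) for Saa1, chr7:46751583-46751782 (plus strand) for Saa2 and chr7:46715727-46715926 (minus strand) for Saa3. Capitals mark matches to the C/EBP motif TTGCNNAA on either strand.
Saa1: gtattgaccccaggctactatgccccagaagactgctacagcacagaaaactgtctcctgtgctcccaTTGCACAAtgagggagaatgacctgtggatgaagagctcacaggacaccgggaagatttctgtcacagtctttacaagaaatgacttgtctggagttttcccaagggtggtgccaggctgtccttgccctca
Saa2: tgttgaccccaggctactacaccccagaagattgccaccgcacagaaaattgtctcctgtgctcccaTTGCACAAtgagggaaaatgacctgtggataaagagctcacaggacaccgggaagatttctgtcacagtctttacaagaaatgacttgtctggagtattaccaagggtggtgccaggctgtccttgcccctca
Saa3: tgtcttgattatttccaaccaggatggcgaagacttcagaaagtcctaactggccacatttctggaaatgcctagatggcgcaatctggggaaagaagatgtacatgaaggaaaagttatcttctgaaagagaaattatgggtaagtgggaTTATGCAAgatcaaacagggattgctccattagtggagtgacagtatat

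The windows were aligned end to end with gaps allowed. Saa1 and Saa2 were then identical at 94% of 200 bases, Saa1 and Saa3 at 45.5%, and Saa2 and Saa3 at 47%. No baseline from unrelated windows was computed for these shares. The C/EBP match started 182 bases before the start in Saa1, 183 in Saa2 and 99 in Saa3, and the 3 Saa windows held no match to the other motifs searched. Those were STAT (TTCNNNGAA) and a loose NF-kappaB pattern (GGGNNNTTC), also searched on both strands. Among the other 5 windows, C/EBP matches were found in Lcn2, Fgb, Orm2 and Hpx, a STAT match in Fgb, and NF-kappaB matches in Fgb and Serpina3n. Of 32851 RefSeq promoter entries, 10.8% held the C/EBP motif, 8.3% the STAT motif and 14% the NF-kappaB pattern. These shares were counted over whole entries, which reach past the start and are longer than the windows printed. The entries of the 8 genes were searched over the same full length. A match describes the letters of a window and is no evidence of a bound factor. The likeness of Saa1 and Saa2 extends to their transcripts, where 31.1% of the 50-base words of Saa1 also occur in Saa2. Orm1 shares 20.4% of its words with Orm2. How the authors' counting treated reads that fit both genes of such a pair was not stated in the sources used here, so the separate values of Saa1 and Saa2, and of Orm1 and Orm2, are uncertain.

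Total counts ran from 30295862 to 41040268 per library. The limit that 0 counts allow, 3 counts, equals 0.073 to 0.099 CPM and covers counting error only. Cell type labels were checked against marker lists. The summed hepatocyte markers, all 12 of which had counts in hepatocytes, were at 3709 to 3912 CPM in hepatocytes, against 2.78 to 14.5 CPM in BMDM. Microglia held 19.4 to 132 CPM of these markers with at most 3 of 12 above 9 counts per group, led by the urea cycle enzyme Ass1 with 4548 to 4980 counts in each vehicle library. Macrophage markers summed to 335 to 381 CPM in the hepatocyte libraries. One library stood apart before any comparison. In saringosterol BMDM replicate 3, 17 interferon-stimulated genes summed to 1183 CPM, against 205 and 245 CPM in the other saringosterol BMDM, 264 to 312 CPM in GW BMDM and 470 to 698 CPM in vehicle BMDM. Results that rest on it are given with and without it.

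In vehicle cultures the set was a hepatocyte set, with Saa3 as the exception. Hpx, the plasma protein that binds free haem, was highest at 8211 ± 371 TPM (SD, n = 3) in hepatocytes, followed by Hp, which binds free haemoglobin, at 1963 ± 229 TPM. The carrier protein gene Orm1 stood at 1127 ± 12.98 TPM and the fibrinogen chain gene Fgb at 598 ± 21.4 TPM. These 4 transcripts are constitutive products of liver as well as acute phase products. The high-density lipoprotein-associated Saa1 and Saa2 averaged 448 ± 6.44 and 414 ± 1.98 TPM. Below them came Serpina3n, a secreted inhibitor of serine proteases, at 302 ± 8.44 TPM and Lcn2, which binds bacterial siderophores, at 207 ± 7.45 TPM. Orm2 at 73.5 ± 3.51 TPM and Saa3 at 51.2 ± 2.80 TPM were lowest. No neighbours in this order overlapped between libraries.

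Microglia and BMDM had little of most of these transcripts. Vehicle microglia held 379, 421 and 405 TPM of Saa3, 13.8, 14.8 and 13.9 TPM of Hp, and 1.92, 2.04 and 1.96 TPM of Saa1, and the means of the other 7 genes were at or below 1.11 TPM. Saa3 in these microglia was thus above Saa3 in hepatocytes, and its range included that of Saa2 in hepatocytes (412 to 416 TPM). Vehicle BMDM held 8.73, 3.55 and 7.29 TPM of Hp, 3.62, 4.64 and 3.92 TPM of Lcn2, and 12.4, 0.476 and 5.19 TPM of Saa3, and these 3 ranges overlapped. The remaining 7 genes averaged at most 0.504 TPM in vehicle BMDM, with Saa2 and Fgb at 0 counts. Fgb had 1 count in all microglia libraries together and 0 in all BMDM libraries.

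The comparisons of vehicle cells used edgeR's quasi-likelihood test on all 18979 genes of the 27-library fit, and a gene is called where its adjusted p is under 0.05. Fitted by cell type, all 10 acute phase genes passed edgeR's filter on low counts in hepatocytes, 6 in microglia and 3 in BMDM. Those that failed it in microglia or BMDM, Saa2, Orm2, Fgb and Hpx in both, entered this fit through cells where they were high. Their higher level in hepatocytes was thus largely set in advance by the filter, and their calls are a description. Between hepatocytes and microglia 73.5% of all genes tested were called, 36.2% higher and 37.3% lower in hepatocytes. Of the 10 genes, 9 were called higher in hepatocytes, and Saa3 was called lower, with a log2 fold change of -3.29 ± 0.88 (SE, edgeR adjusted p = 0.0023). Hp, for instance, was higher by 6.80 ± 0.30 and Saa1 by 7.51 ± 0.13. Between hepatocytes and BMDM 75.2% of genes were called, 37.5% higher and 37.7% lower in hepatocytes, and all 10 acute phase genes were called higher. Saa2 was at least 13340-fold and Fgb at least 29150-fold higher in hepatocytes when BMDM are set at the floor of 3 counts over the group. Saa3 was higher by 2.64 ± 1.01 (edgeR adjusted p = 0.024), a call that was lost without vehicle BMDM replicate 2 (0.090) or 3 (0.066). Between microglia and BMDM, where 46.5% of genes were called (24.6% higher and 22% lower in microglia), Saa1, Saa2, Saa3, Hp and Serpina3n were called higher in microglia and Lcn2 lower. Saa2, which passed the filter in neither of these cells, had 0, 4 and 6 counts in microglia and 0 in BMDM. With BMDM at the floor of 3 counts it was at least 3.16-fold higher. Serpina3n had 27, 11 and 52 counts in microglia and 0, 0 and 3 in BMDM. Saa1 had 62 to 66 counts per library in microglia and 2 to 4 in BMDM. Saa1 and Serpina3n passed the filter in microglia but not in BMDM. The calls of Saa1, Saa2 and Serpina3n between these cells are therefore a description as well. Saa3 differed by 5.92 ± 1.06, and Lcn2 by -3.14 ± 0.30 (edgeR adjusted p = 9.5e-09). Hp differed by 1.00 ± 0.34 (edgeR adjusted p = 0.020), and its call was lost without vehicle BMDM replicate 2 (0.11). Neutrophil markers summed to 65.7 to 76.6 CPM in vehicle microglia and 111 to 115 CPM in vehicle BMDM. Of these 10 markers, 4 had more than 9 counts over the group in vehicle microglia and 9 in vehicle BMDM. S100a9, Mpo, Retnlg and Ngp had no counts in vehicle microglia. The part of neutrophil markers in the Lcn2 difference was not tested.

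**Figure D1:**
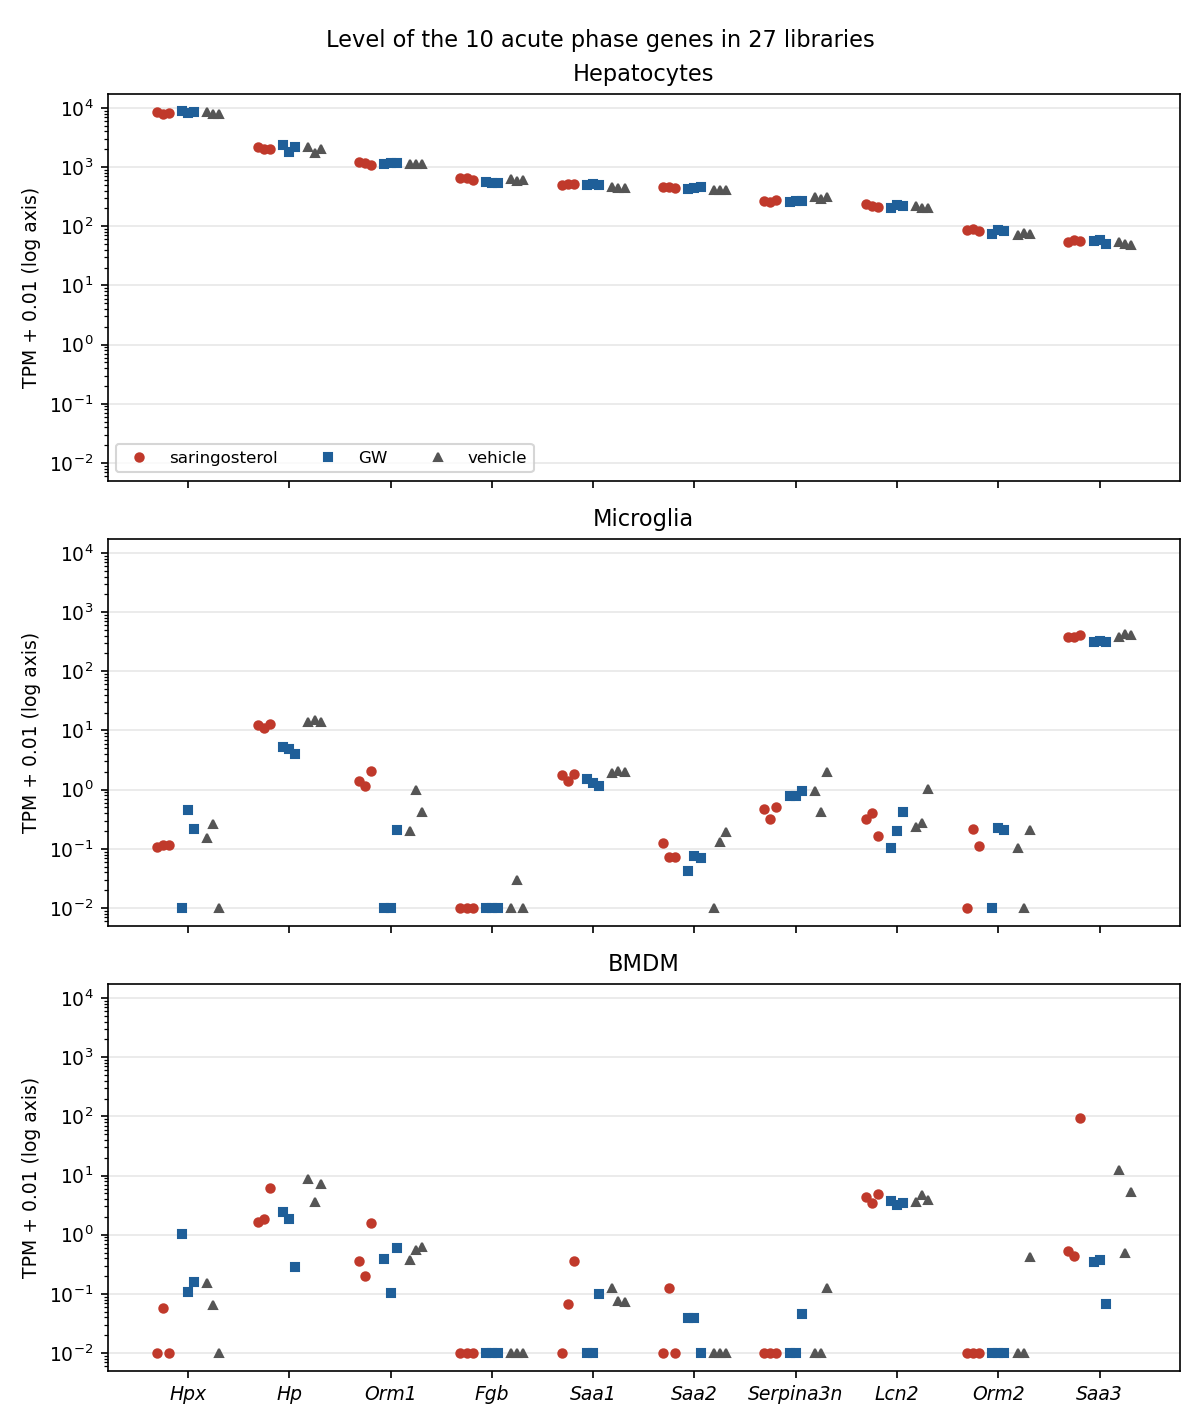
Level of each acute phase gene in every library, as TPM + 0.01 on a log axis, with 1 panel per cell type and 3 libraries for each of saringosterol (circles), GW (squares) and vehicle (triangles). All 10 genes lie above 48 TPM in hepatocytes, Saa3 lies between 308 and 422 TPM in microglia, and in BMDM 1 saringosterol library is at 93.1 TPM for Saa3 while the other 2 are at 0.524 and 0.419 TPM.

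The makeup of the serum amyloid A transcripts differed accordingly. In vehicle hepatocytes Saa1 gave 49.1% (48.8 to 49.3%), Saa2 45.3% (44.9 to 45.6%) and Saa3 5.60% (5.37 to 5.86%) of their summed TPM. In vehicle microglia Saa3 gave 99.5% (99.5 to 99.5%) and in vehicle BMDM 95.2% (87.7 to 99.1%). Treatment moved these shares little where the transcripts were abundant. The mean share of Saa3 was 5.59% in saringosterol and 5.48% in GW hepatocytes, and 99.6% in both saringosterol and GW microglia. No test was made of the shares.

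Hepatocytes changed little in these genes under saringosterol. Of 16098 genes tested, 1.91% were called, 0.888% higher and 1.02% lower than in vehicle hepatocytes, and 2 of the 10 acute phase genes were called, Saa1 higher and Serpina3n lower. Saa1 stood at 505, 508 and 507 TPM in saringosterol hepatocytes and 455, 443 and 447 TPM in vehicle hepatocytes. The groups did not overlap, and the log2 fold change was 0.18 ± 0.04 (edgeR adjusted p = 0.020), or 12.98% on the linear scale. Serpina3n stood at 269, 258 and 276 TPM in saringosterol hepatocytes and 307, 293 and 307 TPM in vehicle hepatocytes, again without overlap. Its log2 fold change was -0.18 ± 0.05 (edgeR adjusted p = 0.042). Both calls were near the threshold. The Saa1 call was lost without saringosterol replicate 1 (adjusted p = 0.065) or 2 (0.12) or vehicle replicate 3 (0.14), and the Serpina3n call without saringosterol replicate 2 (0.27) or 3 (0.069) or vehicle replicate 1 (0.17) or 3 (0.21), all by edgeR.

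The other 8 genes were not called in saringosterol hepatocytes. Saa2 stood at 455, 462 and 441 TPM in saringosterol hepatocytes and 416, 414 and 412 TPM in vehicle hepatocytes (log2 difference 0.13 ± 0.04, edgeR adjusted p = 0.12). Orm2 stood at 88.0, 90.3 and 82.9 TPM in saringosterol hepatocytes and 70.4, 77.3 and 72.8 TPM in vehicle hepatocytes (0.24 ± 0.08, edgeR adjusted p = 0.12). Saa3 stood at 54.9, 59.2 and 56.4 TPM in saringosterol hepatocytes and 54.2, 50.7 and 48.7 TPM in vehicle hepatocytes (0.15 ± 0.06, edgeR adjusted p = 0.25). The ranges of all 3 were apart, with saringosterol higher. In all, the ranges of 4 genes were apart with saringosterol higher, where 9.28% of all genes tested were, and that of 1 gene with saringosterol lower, where 9.78% of all genes were. The log2 fold changes of the 10 genes had a median of 0.11, against 0.00035 over all genes tested, and 9 of the 10 were above 0. Hp was the most variable gene, at 2218, 2023 and 2041 TPM in saringosterol hepatocytes and 2157, 1710 and 2023 TPM in vehicle hepatocytes. Its 95% interval for the log2 difference ran from -0.18 to 0.36, so a change of that size either way was not detectable here. That of Hpx was narrower, from -0.08 to 0.10, around means of 8272 ± 266 TPM in saringosterol hepatocytes and 8211 ± 371 TPM in vehicle hepatocytes.

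In GW hepatocytes 1.11% of 16098 genes were called and none of the 10 acute phase genes, although 4 had an unadjusted edgeR p under 0.05 and DESeq2 called 2. Those 2 were Saa1 and Serpina3n. The shares of all genes under these 2 rules are not given here. These counts, and the unadjusted counts below, are therefore not read as a result about the genes. Saa1 stood at 493, 509 and 489 TPM in GW hepatocytes, above the 443 to 455 TPM of vehicle hepatocytes (log2 difference 0.15 ± 0.04, edgeR adjusted p = 0.068, DESeq2 adjusted p = 0.0068). Serpina3n stood at 257, 268 and 272 TPM in GW hepatocytes, below the 293 to 307 TPM of vehicle hepatocytes (-0.18 ± 0.05, edgeR adjusted p = 0.052, DESeq2 adjusted p = 0.013). The Serpina3n difference was called by edgeR without vehicle replicate 2 (adjusted p = 0.015). With saringosterol the same genes had log2 differences of 0.18 and -0.18 against the same vehicle libraries. The remaining log2 differences under GW lay between -0.12 for Fgb and 0.15 for Orm2.

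Saringosterol and GW hepatocytes differed in 1.96% of 16098 genes, and Fgb was the 1 acute phase gene called. It stood at 657, 651 and 615 TPM in saringosterol hepatocytes and 565, 534 and 546 TPM in GW hepatocytes, without overlap (log2 fold change 0.22 ± 0.05, edgeR adjusted p = 0.0050). It was the only 1 of the 10 whose ranges were apart here, where 9.37% of all genes had saringosterol apart and higher and 8.41% apart and lower. The vehicle libraries, at 621, 579 and 594 TPM, lay above the GW libraries and overlapped the saringosterol libraries. Neither compound's own difference from vehicle was called for Fgb, at 0.10 ± 0.05 (edgeR adjusted p = 0.27) for saringosterol and -0.12 ± 0.05 (0.38) for GW. For Serpina3n the 95% interval of the difference between saringosterol and GW was -0.09 to 0.09, for Saa1 -0.06 to 0.10 and for Saa2 -0.08 to 0.09 on the log2 scale. Macrophage markers summed to 351 to 381 CPM in saringosterol, 335 to 372 CPM in GW and 343 to 373 CPM in vehicle hepatocytes. Of the 9 marker lists, 4 had sums that were apart between saringosterol and GW hepatocytes, 3 between saringosterol and vehicle and 2 between GW and vehicle. Cholangiocyte markers (5 to 6 of 6 above 9 counts per group) summed to 599 to 692 CPM in saringosterol, 493 to 540 CPM in GW and 608 to 642 CPM in vehicle hepatocytes. Endothelial markers (5 to 6 of 7) summed to 1.86 to 1.95 CPM in saringosterol, 3.53 to 4.48 CPM in GW and 2.38 to 4.09 CPM in vehicle hepatocytes, and astrocyte markers (3 to 4 of 7) to 94.7 to 100.2, 116 to 133 and 120.0 to 127 CPM in the same order. The part of these differences in the results was not tested. In bulk RNA of this kind, fewer cells of a type, less RNA per cell and expression of listed genes by hepatocytes themselves cannot be told apart. The astrocyte sum rests on few of its genes, and Slc1a3 had no counts in saringosterol and GW hepatocytes. That sum does not show that astrocytes were present.

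**Figure D2:**
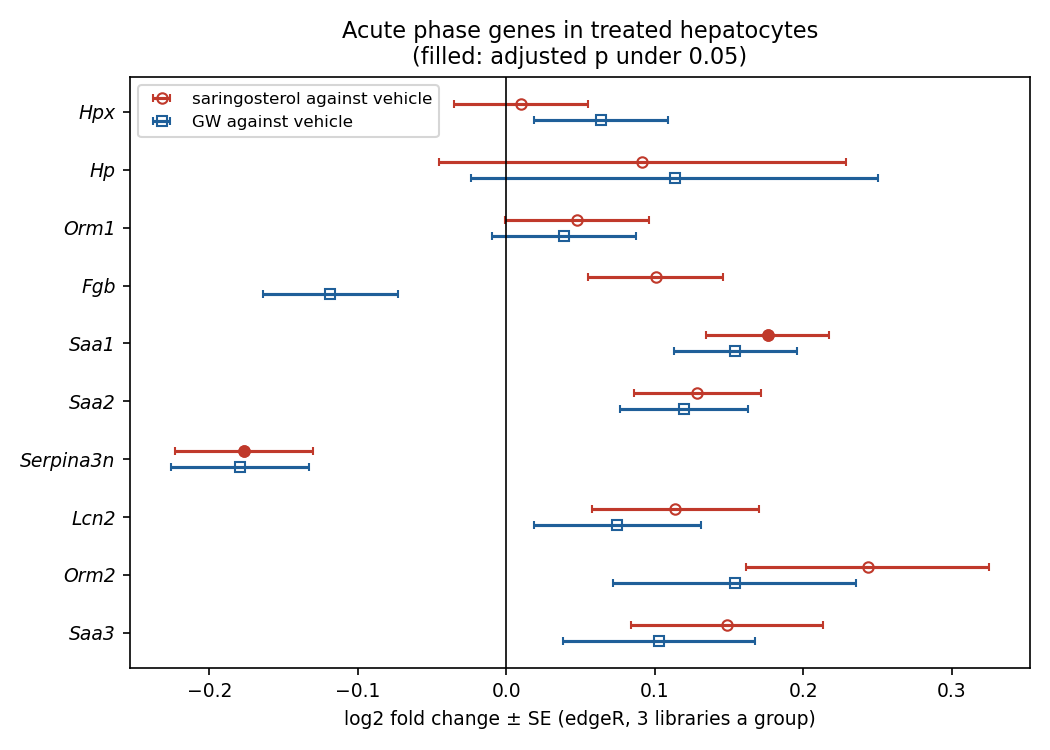
Log2 fold change with its SE for each acute phase gene in hepatocytes, saringosterol (circles) and GW (squares) against the same 3 vehicle libraries, with filled symbols where the edgeR adjusted p is under 0.05. All values lie between -0.18 and 0.24, and the 2 filled symbols are Saa1 and Serpina3n under saringosterol.

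In microglia Hp and Saa3 were lower with GW than with vehicle. Of 16065 genes tested there, 28.7% were called under GW, 13.4% higher and 15.2% lower, and 6 acute phase genes passed the filter on low counts (Saa1, Saa3, Hp, Orm1, Lcn2 and Serpina3n). Hp stood at 5.25, 4.85 and 3.99 TPM in GW microglia and 13.8, 14.8 and 13.9 TPM in vehicle microglia. It fell by 1.52 ± 0.15 on the log2 scale (edgeR adjusted p = 1.1e-09), or to 0.348 times the vehicle level. Saa3 stood at 308, 322 and 313 TPM in GW microglia and 379, 421 and 405 TPM in vehicle microglia. It fell by 0.29 ± 0.04 (edgeR adjusted p = 9.5e-06), and its groups did not overlap either. The Saa3 call was lost in the fit on all 27 libraries (-0.28 ± 0.79, edgeR adjusted p = 0.88). Of the other 4 genes tested, none was called. Saa1 was at 1.52, 1.31 and 1.14 TPM in GW microglia and 1.92, 2.04 and 1.96 TPM in vehicle microglia (edgeR adjusted p = 0.15). The log2 differences were -2.67 for Orm1 (edgeR adjusted p = 0.068), -1.03 for Lcn2 (0.26) and -0.36 for Serpina3n (0.62). Orm1 was called lower in 2 of 6 fits that left out 1 library. The summed hepatocyte markers moved with Hp and Saa3, at 19.4 to 20.5 CPM in GW and 111 to 132 CPM in vehicle microglia. Ass1 led this sum, at 23.8 ± 0.771 TPM in GW and 149 ± 12.5 TPM in vehicle microglia, and 1 of 12 markers in GW and 3 of 12 in vehicle libraries had more than 9 counts over the group. Cps1, Cyp3a11 and Tat were at 0 in both groups. Of the 9 marker lists, 8 had sums that were apart, the hepatocyte list and the dendritic and B cell list (81.1 to 96.1 CPM in GW, 147 to 158 CPM in vehicle) being lower with GW and 6 higher. Among those, astrocyte markers, all 7 with more than 9 counts in both groups, summed to 44.4 to 50.3 CPM in GW and 38.2 to 40.4 CPM in vehicle microglia, and macrophage markers to 39320 to 40110 CPM in GW and 35230 to 37100 CPM in vehicle microglia. Only 1 of the 7 dendritic and B cell markers had more than 9 counts over the group in GW microglia. Ms4a1, Flt3 and Ccr7 had none there. The part of these marker lists in the results was not tested.

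Under saringosterol none of the 6 genes was called in microglia, where 10.8% of 16065 genes were, and 2 of the 6 had an unadjusted edgeR p under 0.05. Saa3 stood at 377, 374 and 415 TPM in saringosterol microglia and 379, 421 and 405 TPM in vehicle microglia, with a 95% interval for the log2 difference of -0.15 to 0.03. Hp stood at 12.4, 11.1 and 12.7 TPM in saringosterol microglia and 13.8, 14.8 and 13.9 TPM in vehicle microglia (-0.24 ± 0.13, edgeR adjusted p = 0.30). Serpina3n, at 0.457, 0.312 and 0.505 TPM in saringosterol and 0.945, 0.407 and 1.97 TPM in vehicle microglia, was called lower when vehicle replicate 2 was left out (edgeR adjusted p = 0.016, against 0.066 with it). Those values rest on 8 to 13 counts per saringosterol library and 11 to 52 per vehicle library. Saringosterol and GW microglia differed in 25.5% of genes and in 3 of the 6 acute phase genes, all higher with saringosterol. The log2 fold changes were 1.28 ± 0.15 for Hp (edgeR adjusted p = 5.5e-08), 0.23 ± 0.04 for Saa3 (0.00026) and 4.19 ± 1.00 for Orm1 (0.0011). The Saa3 call was lost in the fit on all 27 libraries (0.23 ± 0.79, edgeR adjusted p = 0.92). Hepatocyte markers, Ass1 foremost, were higher with saringosterol as well, at 75.7 to 87.0 CPM in saringosterol and 19.4 to 20.5 CPM in GW microglia, as were the dendritic and B cell markers (137 to 144 and 81.1 to 96.1 CPM), and their part was not tested. Orm1 is a low transcript in microglia, with 15, 11 and 20 counts in saringosterol, 0, 0 and 2 counts in GW and 2, 10 and 4 counts in vehicle libraries.

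In BMDM only Hp, Saa3 and Lcn2 passed the filter on low counts, and none of the 3 was called under either compound by edgeR or DESeq2, with 0 (saringosterol) and 1 (GW) of 3 at an unadjusted edgeR p under 0.05. Among all 15416 genes, 10.7% were called for saringosterol and 10.4% for GW. Saa3 stood at 0.524, 0.419 and 93.1 TPM in saringosterol BMDM, at 0.337, 0.363 and 0.0571 TPM in GW BMDM and at 12.4, 0.476 and 5.19 TPM in vehicle BMDM. Replicate 3 of the saringosterol group thus held 3339 counts of Saa3, against 15 in each of the other 2, and the vehicle libraries spread from 15 to 450 counts. The log2 difference of saringosterol from vehicle was 2.28 ± 1.90 (edgeR adjusted p = 0.53) with replicate 3 and -3.76 ± 1.47 (0.21) without it, so that library alone set its sign. All 3 GW libraries lay below the vehicle libraries (-4.59 ± 2.99, edgeR adjusted p = 0.41). Saringosterol and GW BMDM did not overlap, and their difference of 6.88 ± 2.81 (edgeR adjusted p = 0.22) was called by DESeq2 (0.0026) but fell to 0.82 ± 1.92 without saringosterol replicate 3 (edgeR adjusted p = 0.88).

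Hp in BMDM also differed between saringosterol libraries. It stood at 1.64, 1.81 and 6.20 TPM in saringosterol BMDM, 2.42, 1.86 and 0.278 TPM in GW BMDM and 8.73, 3.55 and 7.29 TPM in vehicle BMDM. The GW libraries were below all vehicle libraries (log2 difference -2.12 ± 0.82, edgeR adjusted p = 0.17), whereas saringosterol replicate 3 lay among the vehicle libraries (-1.09 ± 0.77, 0.44, and -1.99 ± 0.71, 0.14, without replicate 3). Lcn2 overlapped between all 3 groups, at 4.37, 3.44 and 4.82 TPM in saringosterol, 3.66, 3.13 and 3.43 TPM in GW and 3.62, 4.64 and 3.92 TPM in vehicle BMDM. Its 95% interval was -0.39 to 0.34 for saringosterol and -0.64 to 0.10 for GW. Saringosterol and GW BMDM differed in 9.33% of genes, and none of the 3 was called; 1 of the 3 had an unadjusted edgeR p under 0.05.

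**Figure D3:**
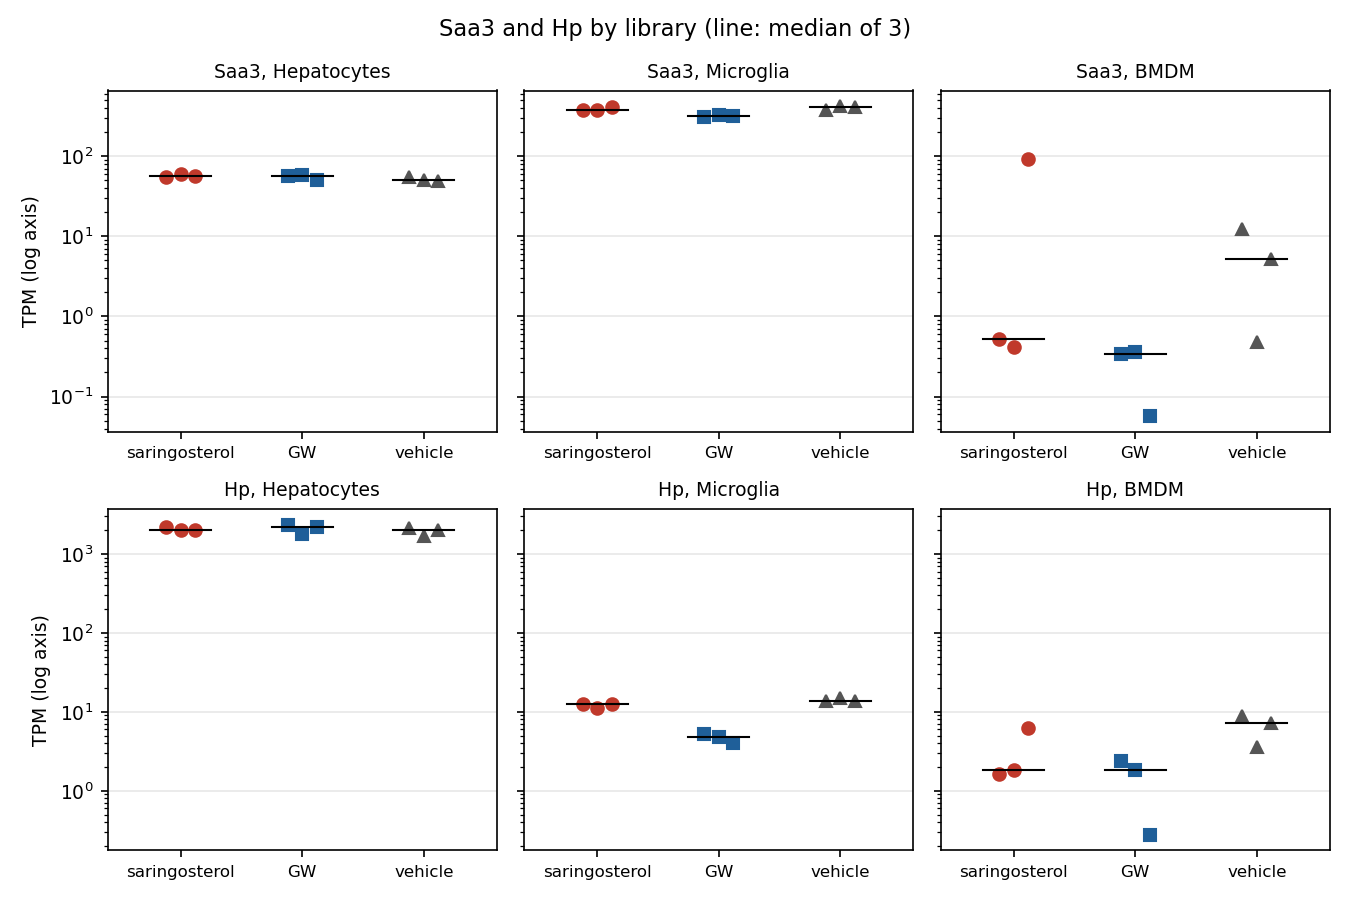
Saa3 (top) and Hp (bottom) in TPM on a log axis, with each library as a point and the median of 3 as a line, in hepatocytes, microglia and BMDM. In microglia the GW libraries lie below the vehicle libraries for both genes, and in BMDM saringosterol replicate 3 lies at 93.1 TPM for Saa3.

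The BMDM library with the most Saa3 also had the highest sum of interferon-stimulated genes. Saringosterol replicate 3 had 93.1 TPM of Saa3 and 1183 CPM summed over the 17 interferon-stimulated genes. The vehicle BMDM followed, with 12.4 TPM beside 698 CPM, 5.19 TPM beside 624 CPM and 0.476 TPM beside 470 CPM in replicates 1, 3 and 2. The other saringosterol libraries held 0.524 TPM of Saa3 beside 205 CPM and 0.419 TPM beside 245 CPM. The GW libraries held 0.363 TPM beside 264 CPM, 0.0571 TPM beside 303 CPM and 0.337 TPM beside 312 CPM. Among these 5 libraries, of 2 to 15 counts of Saa3 each, the library with the lowest interferon sum had the most Saa3, so the order of the higher libraries did not hold there. In microglia both were lower with GW, at 308 to 322 TPM of Saa3 beside 832 to 1085 CPM, than with vehicle, at 379 to 421 TPM beside 2499 to 2832 CPM. Saringosterol microglia had 1465 to 1528 CPM of the interferon-stimulated genes and 374 to 415 TPM of Saa3. These values share libraries, groups and depth and are a description, and what raised both in 1 library was not tested. Called interferon-stimulated genes in microglia numbered 16 of 17 lower under saringosterol and 17 of 17 lower under GW. Of all genes, 10.8% and 28.7% were called there in either direction. In BMDM 0 of 17 were called under either compound with all libraries, at 1 and 0 with an unadjusted edgeR p under 0.05, and 16 of 17 were called lower under saringosterol without replicate 3. Of all genes in BMDM, 10.7% and 10.4% were called under saringosterol and GW with all libraries. The share without replicate 3 is not given here.

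**Figure D4:**
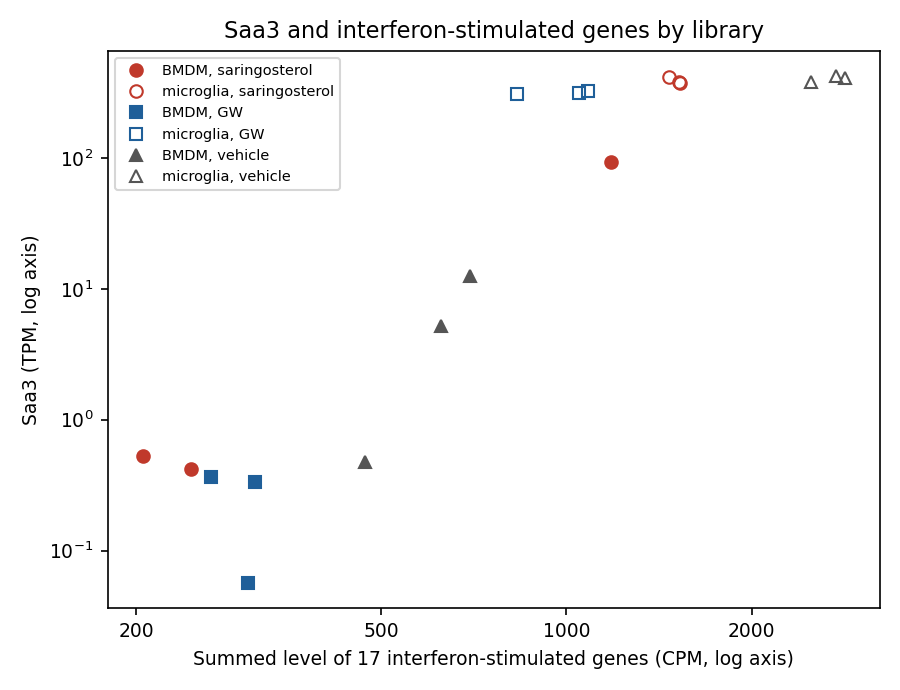
Saa3 (TPM) against the summed level of 17 interferon-stimulated genes (CPM), both on log axes, in 9 BMDM libraries (filled) and 9 microglia libraries (open). The filled circle at 93.1 TPM and 1183 CPM is saringosterol BMDM replicate 3, and the other filled symbols of treated cells lie below 1 TPM and below 320 CPM.

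Whether a response differed between cell types was tested as a difference of log2 fold changes in the fit on all 27 libraries, for genes that passed the filter in both cell types. The response of Hp to GW was higher in hepatocytes than in microglia by 1.62 ± 0.42 (edgeR adjusted p = 0.019) and than in BMDM by 2.22 ± 0.54 (0.021). In hepatocytes Hp stood at 2365, 1783 and 2202 TPM with GW, against 2157, 1710 and 2023 TPM with vehicle, while it was lower in all GW libraries than in all vehicle libraries of the other cells. Of all 18979 genes, 8.69% were called for the first difference (3.64% higher, 5.05% lower) and 4.74% for the second (1.6% higher, 3.14% lower). The first call was lost with DESeq2 (adjusted p = 0.075) and without GW microglia replicate 3 (edgeR, 0.068), and the second without GW BMDM replicate 3 (0.076) or vehicle BMDM replicate 1 (0.093). Between microglia and BMDM, where 9.71% of genes were called, no acute phase gene was called by edgeR for its GW response. No other acute phase gene was called in the first 2 tests, and none for its saringosterol response. For that response 1.18% of genes were called between hepatocytes and microglia, 10.1% between hepatocytes and BMDM and 2.01% between microglia and BMDM. This fit uses 1 estimate of spread per gene for all cells. For Saa3 it includes BMDM libraries at 0.0571 to 93.1 TPM. The absence of a Saa3 call, for GW between hepatocytes and microglia (0.37, edgeR adjusted p = 0.94) too, thus does not show equal responses. By DESeq2, Saa1 was also called for its GW response between hepatocytes and microglia (adjusted p = 0.0042), and Orm1 for its saringosterol response (0.015). Without saringosterol BMDM replicate 3, 2 genes were called for a higher saringosterol response in hepatocytes than in BMDM. These were Saa3 (3.90 ± 0.96, edgeR adjusted p = 0.016) and Hp (2.04 ± 0.51, 0.017). With that library the Saa3 difference was -2.18 ± 1.32 (0.34). For each gene this was the only call among 12 fits that left out a library. The library was noted for its Saa3, so the Saa3 call is a description. The share of all genes called without it is not given here.

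The wider acute phase programme was read from further lists. In hepatocytes, of 27 other positive acute phase genes tested, 2 rose and 1 fell with saringosterol (median log2 fold change 0.04), where 1.91% of all genes were called. The interleukin-1 receptor antagonist gene Il1rn rose to 10.3 ± 1.30 TPM in saringosterol hepatocytes, against 6.81 ± 0.469 TPM with vehicle (edgeR adjusted p = 0.0010). Cp, the copper carrier ceruloplasmin, rose by 0.20 ± 0.04, and Serpina1a, an alpha-1 antitrypsin gene, fell by 0.18 ± 0.04. With GW, where 1.11% of all genes were called, 3 rose and 1 fell (median 0.05), among them Lbp, which hands endotoxin to CD14, at 12.5 ± 0.521 TPM with GW and 9.19 ± 0.381 TPM with vehicle (edgeR adjusted p = 0.0023). The metallothionein gene Mt1 rose by 0.29 ± 0.06 and Steap4, a metalloreductase gene, fell by 0.23 ± 0.05. Among 12 negative acute phase genes, whose products decline in the acute phase, Ahsg (fetuin-A) rose by 0.23 ± 0.05 with saringosterol and none was called with GW, where 1 had an unadjusted edgeR p under 0.05. Alb stood at 7890 ± 125 TPM with saringosterol, 8219 ± 282 TPM with GW and 8252 ± 40.8 TPM with vehicle.

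Of the signalling genes above the acute phase response, 1 was called against vehicle in hepatocytes. None of 9 cytokine and receptor genes tested was called under either compound, with 2 of 9 at an unadjusted edgeR p under 0.05 in each. None of 19 transcription factor and feedback genes was called under saringosterol, with 1 at an unadjusted p under 0.05, and 1 under GW. That gene was Hnf4a, a hepatocyte transcription factor, which fell to 129 ± 8.33 TPM with GW, against 172 ± 6.31 TPM with vehicle (edgeR adjusted p = 3.5e-06). Between saringosterol and GW hepatocytes Hnf4a (0.33 ± 0.05, edgeR adjusted p = 8.2e-05) and Fos (0.36 ± 0.10, 0.045) were called, both higher with saringosterol. Stat3 stood at 88.9 ± 7.57 TPM with saringosterol, 88.4 ± 3.03 TPM with GW and 94.8 ± 2.87 TPM with vehicle. Socs3, a feedback inhibitor of IL-6 signalling, stood at 6.56 ± 0.870, 6.04 ± 0.404 and 6.59 ± 0.490 TPM in the same order. Of 10 LXR targets, 5 rose with GW in hepatocytes (Scd1, for instance, by 1.93 ± 0.05) and 0 were called with saringosterol, 4 of them at an unadjusted edgeR p under 0.05.

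In microglia, where 10.8% of all genes were called with saringosterol and 28.7% with GW, the wider programme moved in both directions. Of 9 other positive acute phase genes tested, 2 rose and 2 fell with saringosterol, and 3 rose and 4 fell with GW (median log2 fold changes -0.20 and -0.51, against -0.0031 and -0.0054 over all genes tested). Lbp rose to 10.2 ± 0.610 TPM with saringosterol and 15.8 ± 0.174 TPM with GW, against 3.19 ± 0.379 TPM with vehicle (edgeR adjusted p = 1.5e-13 and 2.2e-18). Il1rn fell to 91.7 ± 1.59 TPM with GW, against 461 ± 8.83 TPM with vehicle, and the complement gene Cfb fell by 2.07 ± 0.34. The endotoxin receptor gene Cd14 fell by 0.56 ± 0.04 and the complement gene C3 by 0.31 ± 0.05 with saringosterol. Of 11 cytokine and receptor genes, 1 rose and 3 fell with saringosterol, and 2 rose and 4 fell with GW (medians -0.09 and -0.16). Il1b, which codes for an inducer of acute phase genes in liver, fell to 4.35 ± 1.34 TPM with saringosterol and 1.99 ± 0.0449 TPM with GW, against 18.4 ± 2.75 TPM with vehicle. Il1a went the other way, with 56.1 ± 3.64 TPM with saringosterol and 62.6 ± 5.48 TPM with GW, against 16.01 ± 1.58 TPM with vehicle. Of 15 transcription factor and feedback genes, 1 rose and 7 fell with saringosterol, and 2 rose and 8 fell with GW (medians -0.11 and -0.31). Cebpb, a C/EBP factor, was at 385 ± 18.9 TPM with saringosterol and 235 ± 12.1 TPM with GW, against 433 ± 24.6 TPM with vehicle, and was called lower in both. Cebpd likewise fell by 0.40 ± 0.08 with saringosterol and 0.59 ± 0.08 with GW.

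In BMDM, where 10.7% of all genes were called with saringosterol and 10.4% with GW, Lbp also rose with both compounds, to 1.71 ± 0.0991 TPM with saringosterol and 2.99 ± 0.384 TPM with GW, against 0.105 ± 0.0984 TPM with vehicle (edgeR adjusted p = 4.1e-05 and 2.7e-06). It was the 1 of 8 other positive acute phase genes called with saringosterol. With GW 3 of 8 rose, the metallothionein genes Mt1 and Mt2 being the others, and 1 fell. Among 11 cytokine and receptor genes, 3 rose and 1 fell with saringosterol, and 3 rose and 3 fell with GW. Il1a was at 11.9 ± 5.43 TPM with saringosterol and 12.1 ± 1.77 TPM with GW, against 1.23 ± 0.755 TPM with vehicle. The IL-6 family cytokine gene Osm was at 6.00 ± 1.57 TPM with saringosterol and 5.22 ± 0.709 TPM with GW, against 2.16 ± 0.653 TPM with vehicle. Both were called higher under each compound. Il1b stood at 3.07 ± 4.44 TPM with saringosterol, 2.38 ± 0.310 TPM with GW and 3.17 ± 0.893 TPM with vehicle, and was not called. Of 15 transcription factor and feedback genes, 2 rose and 6 fell with saringosterol, including Cebpd by 0.67 ± 0.11, and 2 fell with GW, Fos by 0.82 ± 0.07 and Cebpb by 0.32 ± 0.06. Without saringosterol BMDM replicate 3, for which the share of all genes called is not given here, 2 of the 8 other positive genes were called higher and 3 lower. So were 3 of the 11 cytokine and receptor genes higher and 4 lower, and again 2 and 6 of the 15 factors. Lbp (3.93 ± 0.42), Il1a (2.73 ± 0.30) and Osm (1.27 ± 0.26) were higher and Cebpd lower (-0.86 ± 0.10) there too, and Il1b was then called lower with saringosterol (-2.71 ± 0.38, edgeR adjusted p = 1.1e-05). Whether these changes differ between cell types was not tested for the listed genes.

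**Figure D5:**
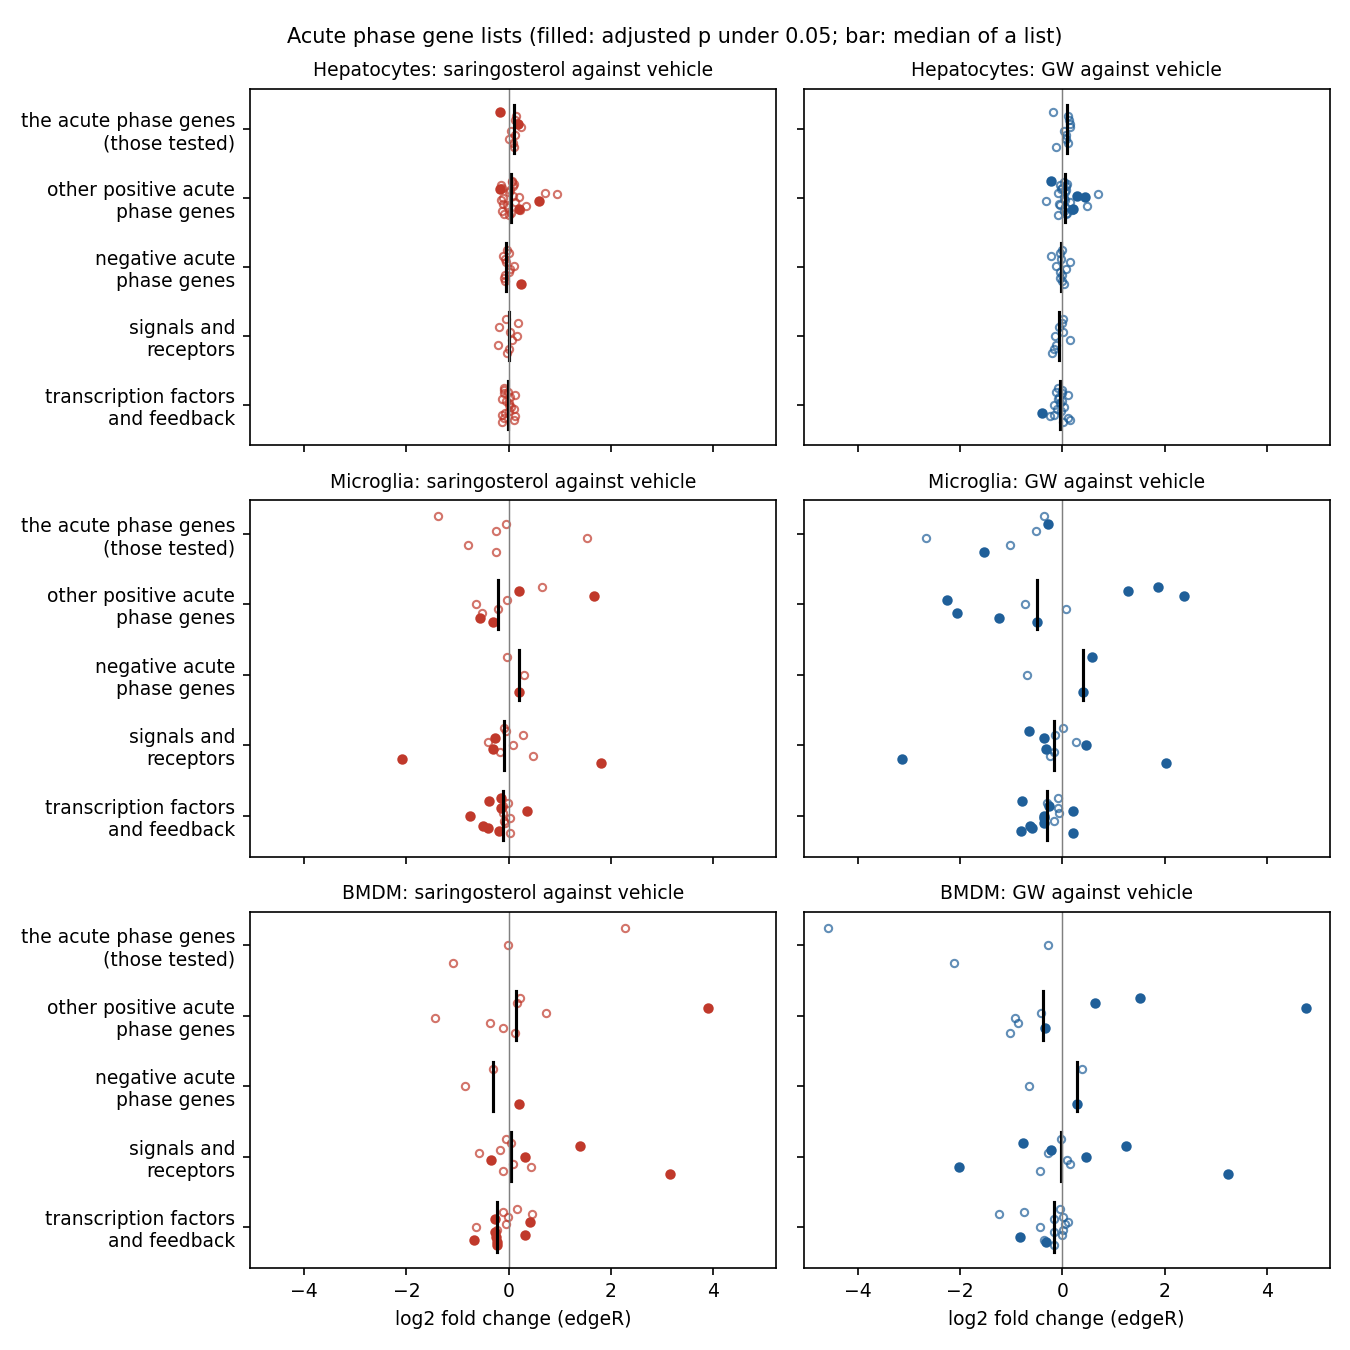
Log2 fold change against vehicle of every tested gene of 5 lists, in hepatocytes (top), microglia (middle) and BMDM (bottom), for saringosterol (left) and GW (right), with filled points where the edgeR adjusted p is under 0.05 and bars at list medians (none for the acute phase genes in microglia and BMDM, where 6 and 3 were tested). The points of hepatocytes lie near 0, and those of the other cells spread to both sides.

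Over the 9 hepatocyte libraries, the genes whose log CPM ran most like that of Saa3 were Dubr (Pearson's r = 0.98), Tada2a (0.96), H2-T-ps (0.96), Ndufa6 (0.95) and Gm12026 (0.95). The mean of the 10 acute phase genes was most like CT010467.1 (0.95), Gm48985 (0.94), Fam174c (0.93), Selenot (0.93) and Gm2076 (0.93). None of these is an acute phase gene or a gene of the other lists. They are the highest values among all genes tested over few libraries that share groups and depth, and they are given as a description with no test.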

How the data were processed

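Column-purified RNA went into oligo-dT primed SMARTer libraries, per the labels' protocols. Per the submitters' processing notes, the tools were STAR 2.5.1a and featureCounts 1.4.6-p5, and the build was GRCm38. Which annotation release, strand setting and rule for multiply fitting reads were used was not given in the sources used here. Per gene, the files deposited by the authors hold whole-number counts of reads beside CPM, FPKM and TPM values. All tests used the deposited counts, and levels are the deposited TPM values, which are per length. The series table repeated 168 identifiers on identical lines, and each identifier was used once.

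Counts were fitted with edgeR 4.0.16 in R 4.3.3 (TMM scaling, edgeR's filter on low counts, quasi-likelihood test, Benjamini-Hochberg adjustment over all genes tested, threshold 0.05), within each cell type on 9 libraries, and on 27 libraries for comparisons between cell types. Alternatives were DESeq2's size factors, plain library totals, no filter, a replicate block, DESeq2 1.42.0, the 27-library fit and leaving out each library. The scripts were tested on simulated data. Chi-square per degree of freedom was 3.61 to 33.54 over the 27 replicate pairs, so none agreed within sampling noise. Fold changes of genes at 0 counts in a group are given as bounds.

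The 10 genes and all lists were chosen with earlier results of these data known. Of the listed genes, at most 3 called genes per list and comparison with the largest change and at least 1 CPM in a group are named, plus Alb, Stat3, Socs3, Il1b, Cebpb and Cebpd. Ass1 was named after its values were seen. The genes most like Saa3 are the 5 with the highest r.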

Additional observations from a re-analysis of the deposited data

Results flagged for a closer look

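The response of Hp to GW differed between cell types in the test of that difference. It was higher in hepatocytes than in microglia by 1.62 on the log2 scale (edgeR adjusted p = 0.019) and higher than in BMDM by 2.22 (0.021). Each call held in 15 of 17 alternatives, the highest adjusted p being 0.075 (DESeq2) and 0.093 (edgeR). Within BMDM, Hp under GW was itself not called against vehicle (edgeR adjusted p = 0.17). GW libraries lay below vehicle libraries in 3 of 3 microglia and in 3 of 3 BMDM replicates, and the ranges overlapped in hepatocytes. Treatment medium also differed between hepatocytes and the other cells, and medium and cell type cannot be told apart.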

How the results depend on the processing

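Counts of acute phase genes called are small and several changed. With plain library totals, the genes called lower in saringosterol against vehicle hepatocytes numbered 0 (1 in the main analysis), those called in GW against vehicle hepatocytes 1 higher and 1 lower (0 and 0), and those with a higher GW response in hepatocytes than in microglia 2 (1). Without a filter on low counts, 1 was lower in GW hepatocytes, 3 had a higher GW response in hepatocytes than in microglia, and 1 had a higher and 1 a lower saringosterol response there. With a replicate block, 1 was higher and 1 lower in GW hepatocytes, and the block changed no other of these counts beyond 1.5 times. In their deviations from group means, same-numbered libraries correlated at -0.15 to 0.11 and differently numbered ones at -0.13 to 0.12. These values do not settle whether the replicate numbers pair libraries. With DESeq2, 1 was higher and 1 lower in GW hepatocytes, 1 was higher in saringosterol than in GW BMDM, and 1 had a lower saringosterol response in hepatocytes than in microglia. It gave no adjusted p for Orm1 in saringosterol against GW microglia or for Saa3 between vehicle cells. In the fit on 27 libraries, 0 were called in saringosterol against vehicle or GW hepatocytes, 1 was lower in GW microglia (2 in the main analysis) and in GW BMDM (0), and 1 was higher in saringosterol than in GW BMDM (0).

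Leaving out single libraries gave 0 to 1 for both directions in saringosterol hepatocytes, for genes lower in GW hepatocytes and in saringosterol microglia, for a higher saringosterol response in hepatocytes than in microglia, and for a higher GW response in hepatocytes than in microglia or BMDM. For a higher saringosterol response in hepatocytes than in BMDM it gave 0 to 2. The Saa3 difference there ran from -3.27, without vehicle BMDM replicate 1, to 3.90, without saringosterol BMDM replicate 3, where it reversed. Of the 1406 alternatives tried for single genes, 1316 kept direction and call, 21 lost the call, 23 gained it, and 46 changed sign, 45 of them where neither value was called.

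Counts over all genes moved as well. In saringosterol hepatocytes 307 genes were called, against 491 without a filter, 782 with the block, 563 with DESeq2, 57 in the 27-library fit and 86 to 803 when libraries were left out. In GW hepatocytes 178 were called, against 286 with the block and 88 in the 27-library fit, and between saringosterol and GW hepatocytes 316, against 544, 146 and, with libraries left out, 188 to 294. Against the 27-library fit, counts were 1743 and 690 in saringosterol microglia, 1643 and 2471 in saringosterol BMDM and 1606 and 2442 in GW BMDM. With libraries left out they were 846 to 1754 in saringosterol BMDM, 896 to 1696 in GW BMDM and 887 to 1475 (1438 with all) between saringosterol and GW BMDM. DESeq2 called 555 differences of saringosterol response between hepatocytes and microglia (edgeR 224, 131 to 269 with libraries left out), 2948 between hepatocytes and BMDM (1918, 1220 to 2381) and 1075 between microglia and BMDM (382, 161 to 681, and 700 without a filter), and 1518 of GW response between hepatocytes and BMDM (899, 606 to 1283). Precision is limited by 3 libraries a group and, for genes under about 20 counts in microglia and BMDM, by depth.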
